A study of Mus musculus with 9 samples.

Results

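Hippocampal RNA of BTBR mice treated with MAN@SKI II was compared with that of vehicle-treated C57BL/6J mice, and each difference was then set beside vehicle-treated BTBR mice to see whether it remained, grew or shrank. The members were 6 of the 9 libraries of the study, 3 per group, chosen by their labels, and the 17550 of 57180 listed genes that passed an expression filter. The 3 MAN@SKI II libraries came from BTBR T+ Itpr3tf/J males, an inbred strain used as a mouse model of autism that carries the tufted allele of Itpr3. These mice were injected through the tail vein with a brain-directed nanomicelle of the S1P inhibitor at 40 mg/kg per day for 7 days. The 3 Model libraries came from BTBR males given vehicle, and the 3 Con libraries from C57BL/6J males given vehicle, both through the tail vein for 7 days. All mice were 5 weeks old at the first injection and 6 weeks old when the hippocampus was taken, which followed behavioural tests. The labels call the vehicle saline in one place and PBS in another, and no group given the empty nanomicelle or treated C57BL/6J mice was among the samples used here. MAN@SKI II and Con therefore differed in both strain and treatment, which cannot be told apart in that comparison alone. MAN@SKI II and Model differed in treatment within a strain.

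Sphingosine-1-phosphate (S1P) is a lipid signal that sphingosine kinases make from sphingosine, that a lyase and phosphatases remove, and that acts on a family of G protein-coupled receptors. In the brain its receptors are found on neurons, astrocytes, endothelium and oligodendrocytes, and the S1P lipids derive from the same ceramide pool that supplies the sphingolipids of myelin. APOE, made mainly by astrocytes, carries cholesterol and phospholipids between brain cells. The question the series title names is whether an APOE/S1P axis of the hippocampus bears on synaptic and behavioural deficits in this strain.

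Total counts per library were between 14751054 and 18827093, so that 3 counts corresponded to 0.159 to 0.203 CPM, the counts scaled to a common library size. Levels below are CPM scaled for composition, given for replicates 1, 2 and 3 of a group in that order. MAN@SKI II 2 stood apart from the other libraries on the second principal component (-49.9, against -4.17 to 16.4) and held 9.63% mitochondrially encoded counts, against 6.26% to 7.15% elsewhere. Neuronal markers of the hippocampus were abundant in all 9 libraries. Slc17a7, the vesicular glutamate transporter of excitatory neurons, was between 1166 and 1374 CPM, and Neurod6, a transcription factor of pyramidal cells, between 201 and 269 CPM. Choroid plexus RNA, from a tissue that borders the hippocampus, separated the strains: the summed level of 16 choroid plexus genes was 152, 166 and 486 CPM in MAN@SKI II mice, 129.6, 471 and 136 CPM in Model while Con held 3263, 1840.1 and 1213 CPM. None of the 16 was without counts in all libraries, and the part of this difference in the results below was not tested beyond the covariate fits given with them. In bulk tissue, fewer cells of a type and less RNA per cell cannot be told apart.

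MAN@SKI II hippocampi differed from Con in 1427 genes (8.13% of those tested) at an adjusted p under 0.05 by edgeR's quasi-likelihood test. Of these, 602 (3.43%) were higher and 825 (4.7%) lower in MAN@SKI II, and 572 (3.26%) had a log2 fold change of 1 or more in size, 227 upwards (1.29%) and 345 downwards (1.97%). For 4797 genes (27.3%) the 3 MAN@SKI II libraries and the 3 Con libraries did not overlap. The count was 857 without Con 1, 878 without Con 2 and 944 without Con 3, and it was 169 (85 higher, 84 lower) when the fit also held the mean log2 level of choroid plexus genes, an alternative added after seeing the data. This added term was between 0.66 and 2.27 in MAN@SKI II and between 3.47 and 4.96 in Con, and since these ranges do not overlap, group and choroid plexus RNA cannot be told apart by it. Of the 1427 genes, 1037 were also called between Model and Con, a comparison that shares the Con libraries; these made up 72.7% of the MAN@SKI II list and 77.4% of the 1340 genes of the Model list (7.64% of genes tested). Among the 390 genes called in MAN@SKI II alone, 82 had an unadjusted p under 0.05 between MAN@SKI II and Model, as did 60 of the 303 genes called in Model alone.

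To follow what remained, grew or shrank without favouring a direction, genes were chosen by the mean of both BTBR groups against Con, which called 1884 genes (10.7%), 770 higher (4.39%) and 1114 lower (6.35%). The 95% interval of MAN@SKI II minus Model was then read for each of them. For 1152 genes (61.1%) that interval lay within 1.5-fold in both directions, which is the meaning of "remained" below. Only 74 genes (3.93%) lay farther from Con in MAN@SKI II than in Model at an unadjusted p under 0.05, and 45 (2.39%) lay closer to Con. The other 613 (32.5%) had intervals too wide to place. None of the differences between MAN@SKI II and Model passed adjustment over all genes by edgeR, with 846 of 17550 genes (4.82%) at an unadjusted p under 0.05; DESeq2 called 17 and limma-voom 0. Within the 1884 strain genes 119 (6.32%) had such a p, beside the 4.82% of all genes. The point estimate moved towards Con in 900 of the 1884 genes (47.8%), and in 45.7% of all genes tested. The median size of the BTBR difference from Con was 0.66 on the log2 scale, while the median size of MAN@SKI II minus Model among the same genes was 0.11. The number farther from Con was 194 with MAN@SKI II 3 left out, and 42 to 107 with any other library left out, while the number closer to Con was 81 with MAN@SKI II 2 left out.

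**Figure D1:**
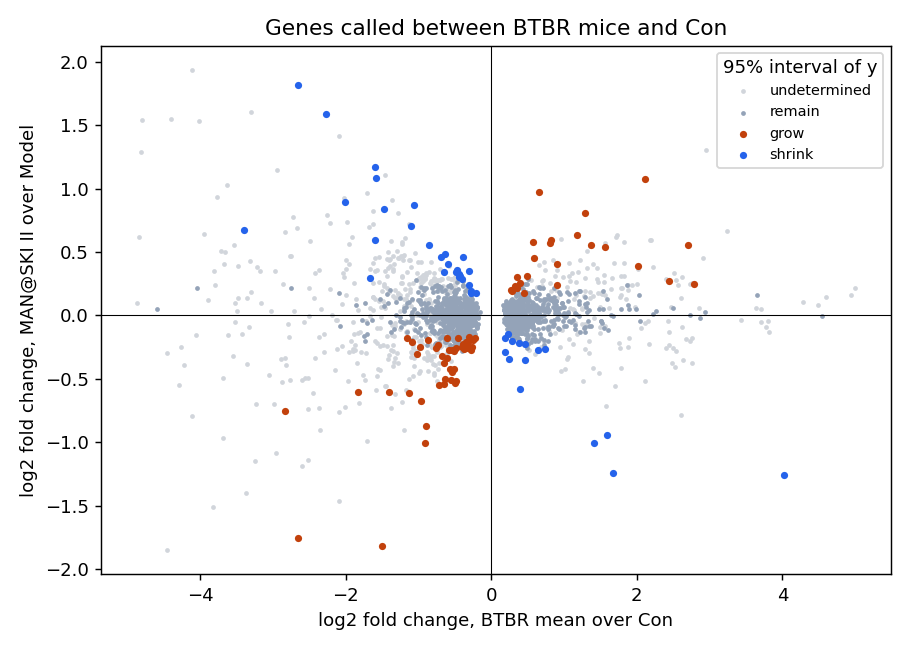
Log2 fold change of MAN@SKI II over Model (vertical) against that of the mean of both BTBR groups over Con (horizontal) for genes called between BTBR mice and Con; each point is a gene, and 65 of the 1884 genes lie outside the axes. Most points lie near the horizontal line, with 74 genes coloured as growing and 45 as shrinking at an unadjusted p under 0.05.

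The largest rises were shared by both BTBR groups. Aox4, an aldehyde oxidase, was at 5.07, 5.87 and 5.18 CPM in MAN@SKI II mice, 6.17, 4.58 and 5.07 CPM in Model mice and 0.911, 0.884 and 0.320 CPM in Con (MAN@SKI II over Con 2.94 ± 0.29 on the log2 scale, SE, adjusted p = 0.000117). Serpina3n, a protease inhibitor that reactive astrocytes secrete, was at 209, 257 and 215 CPM in MAN@SKI II mice, 225, 206 and 212 CPM in Model mice and 58.4, 62.1 and 59.6 CPM in Con (1.92 ± 0.08, adjusted p = 2.05e-07). Scg5, which encodes the chaperone 7B2 of a prohormone convertase, was at 412, 382 and 435 CPM in MAN@SKI II mice, 407, 427 and 396 CPM in Model mice and 122, 128 and 137 CPM in Con (1.66 ± 0.07, adjusted p = 1.87e-07). In each of these genes the BTBR groups overlapped each other and lay wholly above Con. Pla2g4e, a cytosolic phospholipase of the A2 group, was at 32.1, 33.9 and 31.1 CPM in MAN@SKI II mice, 29.0, 25.7 and 31.9 CPM in Model mice and 7.55, 7.72 and 7.20 CPM in Con. Its log2 fold change over Con was 2.11 ± 0.10 (adjusted p = 5.29e-07). Lgr6, a receptor for R-spondins, was at 20.04, 21.1 and 22.2 CPM in MAN@SKI II mice, 19.4, 17.2 and 16.1 CPM in Model mice and 3.45, 3.54 and 3.62 CPM in Con. Against Con the log2 fold change was 2.58 ± 0.11 (adjusted p = 2.05e-07). It was the only gene among the 12 largest rises whose interval of MAN@SKI II minus Model left 0 (0.05 to 0.49), and all 3 treated mice lay above all 3 Model mice. Cfap54, part of the axoneme of motile cilia, rose by 2.01 ± 0.17 (adjusted p = 3.68e-05) and Dnah6, a heavy chain of its inner dynein arms, by 1.87 ± 0.23 (adjusted p = 0.000696). Mamdc2, a secreted proteoglycan, rose by 2.59 ± 0.24, Xaf1, an interferon-induced binding partner of an apoptosis inhibitor, by 1.60 ± 0.21, and Abhd1, a hydrolase-fold protein, by 1.81 ± 0.12, with adjusted p of 6.7e-05, 0.000739 and 4.52e-06. Abhd1 overlaps Preb, a gene on the opposite strand with more counts, and the strand setting of the counting is not given in the sources used here.

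**Figure D2:**
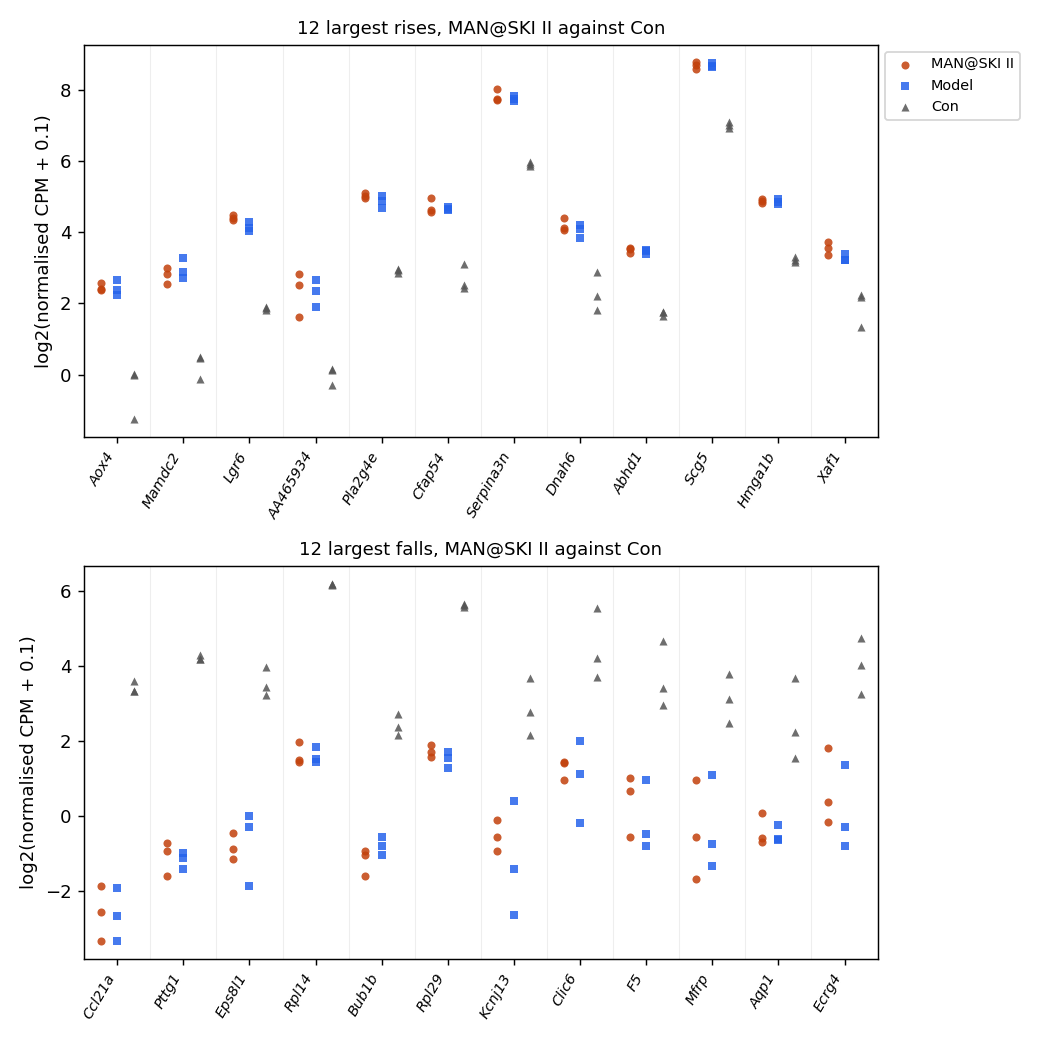
Level by library, as log2 of normalised CPM plus 0.1, of the 12 largest rises (upper panel) and the 12 largest falls (lower panel) in MAN@SKI II against Con; each point is a mouse, with MAN@SKI II, Model and Con from left to right within a gene. MAN@SKI II and Model points lie together and apart from Con; among choroid plexus genes such as Kcnj13 and F5 the spread within a group is wide.

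Among the largest falls, several genes were nearly silent in both BTBR groups. Ccl21a, a chemokine of a family of near-identical mouse genes, had 3, 1 and 0 counts in MAN@SKI II mice, 0, 1 and 3 counts in Model and 154, 203 and 189 counts in Con. Pttg1, which encodes securin, the inhibitor of sister chromatid separation, was at 0.230, 0.424 and 0.511 CPM in MAN@SKI II mice, 0.360, 0.406 and 0.279 CPM in Model mice and 18.2, 18.0 and 19.4 CPM in Con. On the log2 scale MAN@SKI II minus Con was -5.57 ± 0.21 (adjusted p = 9.78e-08). Bub1b, a kinase of the spindle checkpoint, was at 0.230, 0.424 and 0.383 CPM in MAN@SKI II mice, 0.479, 0.580 and 0.390 CPM in Model mice and 5.08, 6.48 and 4.37 CPM in Con. Its log2 fold change over Con was -3.93 ± 0.30 (adjusted p = 1.31e-05). In the list of neurogenesis and proliferation genes, 3 of 14 fell and 0 rose, and 1 fell without Con 1 or Con 2. Among the 3, Pcna, the sliding clamp of DNA polymerase, lost its call when summed with its near-identical Pcna-ps2 (-0.12, adjusted p = 0.501). Eps8l1, an actin regulator, fell by 4.60 ± 0.39 (adjusted p = 4.66e-05) and overlaps Gm15494 on the opposite strand. Another 6 of the 12 largest falls, Kcnj13, F5, Clic6, Mfrp, Aqp1 and Ecrg4, are genes that the choroid plexus expresses strongly, and their intervals of MAN@SKI II minus Model all reached beyond 1 on the log2 scale in both directions. All 6 calls ended without either MAN@SKI II 1 or 2; that of Clic6 also ended without MAN@SKI II 3, that of Mfrp without Model 3, Con 1 or Con 3, and that of Ecrg4 without Model 3, Con 1 or Con 2. Kcnj13 and Mfrp overlap the more strongly counted Gigyf2 and Rnf26 on the opposite strand, and Mfrp summed with C1qtnf5, with which it shares sequence, had a value of -1.87, against -3.37 alone.

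For Rpl14 and Rpl29, ribosomal protein genes, the fall depended on which of several near-identical genes the reads were counted to. Counts of Rpl14 alone were at 2.71, 2.62 and 3.83 CPM in MAN@SKI II mice, 3.48, 2.78 and 2.62 CPM in Model mice and 72.7, 71.7 and 73.0 CPM in Con (-4.57 ± 0.15, adjusted p = 3.67e-08). Its processed copy Rpl14-ps1 averaged 138 ± 31.6 CPM in MAN@SKI II mice, 146 ± 9.18 CPM in Model mice and 70.9 ± 4.65 CPM in Con (SD, n = 3 each). Summed over both, the level was 141 ± 32.0 CPM in MAN@SKI II mice, 149 ± 9.36 CPM in Model mice and 143 ± 4.49 CPM in Con (log2 fold change -0.02, adjusted p = 0.953). The coding sequences of the pair differ at 4 of 648 aligned bases. The stretch of 90 coding bases that holds the most of these differences is shown from GENCODE M21 transcripts on build GRCm38, 5′ to 3′ on the transcript strand (plus for both), with differing bases in capitals, because a read that does not span them cannot tell the genes apart.
Rpl14, chromosome 9: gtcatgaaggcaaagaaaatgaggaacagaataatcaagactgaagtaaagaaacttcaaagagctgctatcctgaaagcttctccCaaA
Rpl14-ps1, chromosome 7: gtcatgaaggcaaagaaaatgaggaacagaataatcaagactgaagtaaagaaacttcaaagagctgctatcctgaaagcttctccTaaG

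Rpl29 alone was at 2.88, 3.18 and 3.64 CPM in MAN@SKI II mice, 2.82, 2.32 and 3.18 CPM in Model mice and 50.7, 49.0 and 47.9 CPM in Con. Its copy with the most counts, Gm13841, averaged 93.2 ± 16.6 CPM in MAN@SKI II mice, 93.1 ± 2.03 CPM in Model mice and 14.0 ± 0.726 CPM in Con. Summed with its 15 near-identical copies, a setting chosen after seeing the data, the direction turned to a rise (0.52 ± 0.11, adjusted p = 0.0148), against -3.93 ± 0.13 for Rpl29 alone. Rpl29 and Gm13841 differ at 2 of 422 aligned coding bases. The pair is shown in the same way, with Rpl29 on the plus strand and Gm13841 on the minus strand of GRCm38.
Rpl29, chromosome 9: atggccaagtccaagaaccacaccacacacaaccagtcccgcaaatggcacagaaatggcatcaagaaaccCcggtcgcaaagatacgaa
Gm13841, chromosome 5: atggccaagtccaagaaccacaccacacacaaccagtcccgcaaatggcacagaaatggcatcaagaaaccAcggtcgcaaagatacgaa

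Hmga1b, a chromatin protein gene whose 321 coding bases are identical to those of Hmga1, kept a smaller rise when both were summed. It was at 29.0, 27.9 and 30.2 CPM in MAN@SKI II mice, 30.6, 27.6 and 28.8 CPM in Model mice and 8.92, 9.73 and 9.17 CPM in Con (1.65 ± 0.09, adjusted p = 1.08e-06). Hmga1 itself was lower in both BTBR groups, at 7.15 ± 1.22 CPM in MAN@SKI II mice, 7.08 ± 0.711 CPM in Model mice and 13.2 ± 0.740 CPM in Con. The sum was 36.2 ± 2.16 CPM in MAN@SKI II mice, 36.1 ± 1.36 CPM in Model mice and 22.5 ± 0.691 CPM in Con (0.69 ± 0.08). Genes with a near-identical copy made up 10.3% of the genes tested, 13.3% of those called and 18.0% of those called with at least 1 on the log2 scale. Predicted genes and pseudogenes made up 18.3%, 23.2% and 43.4% of the same sets; many of these have no known function.

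Gene lists by function and cell type covered only a part of the remaining differences, 93 of the 1152 genes that remained. The 801 list members that were tested held 30 called higher and 71 called lower in MAN@SKI II than in Con, or 12.6% called beside 8.13% of all genes. Of the 138 members called between the BTBR mean and Con, 93 remained, 9 lay farther from Con in MAN@SKI II, 2 lay closer and 34 could not be placed. Those farther from Con included Adra1d, C1qb, Igfbpl1, Sptssa, Sv2c and the myelin genes Mag, Mal and Mobp, and the 2 closer to it were Abcc9 and mt-Nd3. The gene lists were chosen with earlier results of these data known, so their counts describe these libraries and are no independent evidence. With the choroid plexus covariate 10 of the 38 lists with a call held one, and the list median against Con turned sign in 17 of 41 lists.

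**Figure D3:**
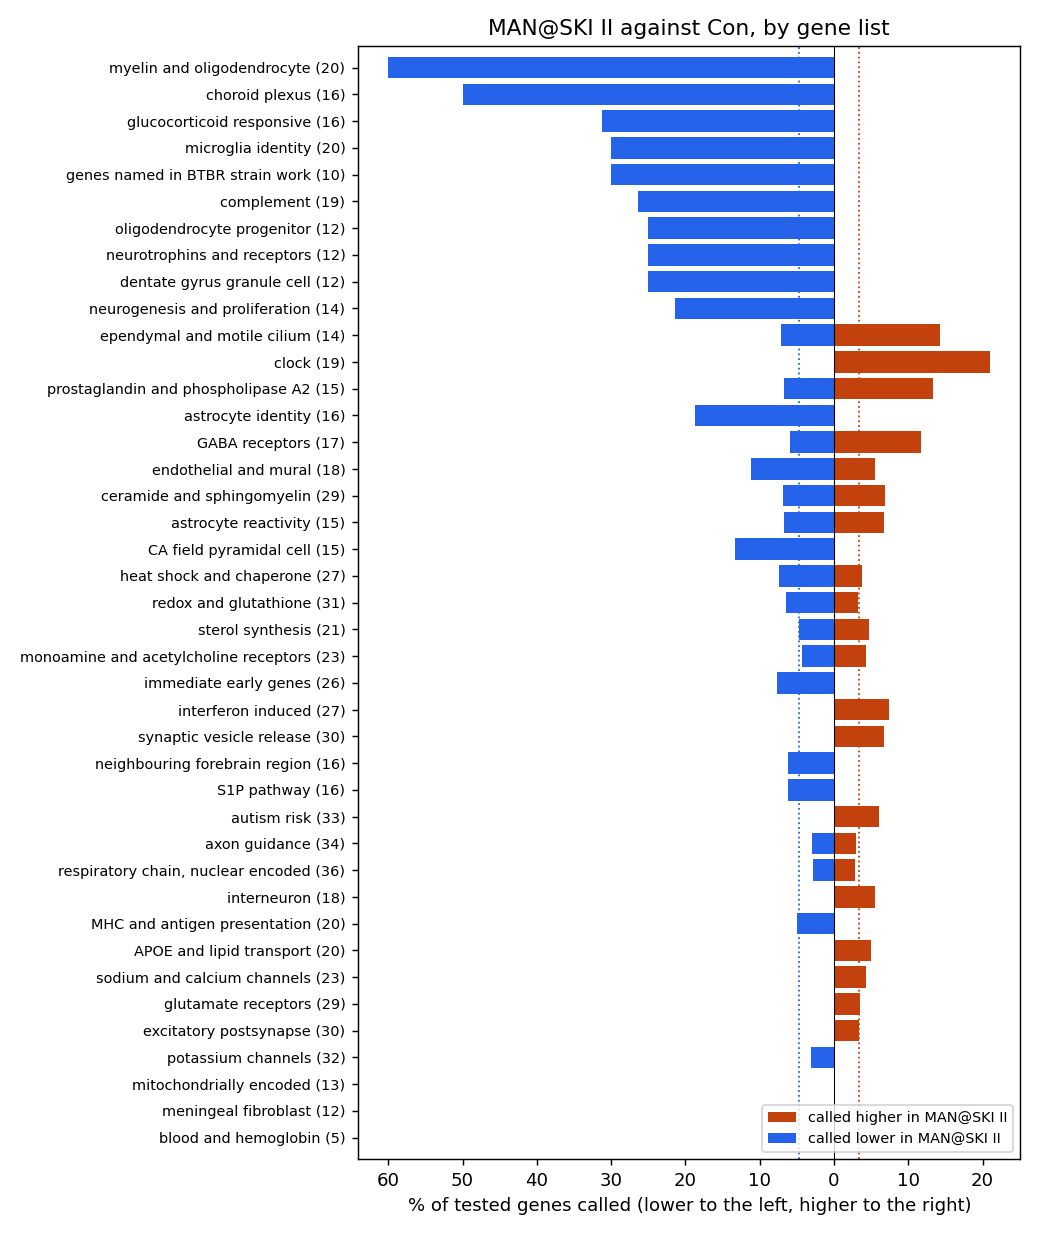
Share of the tested genes of each list (number tested in brackets) that were called higher (right) or lower (left) in MAN@SKI II than in Con; dotted lines mark the shares over all genes, 3.43% higher and 4.7% lower. Myelin and oligodendrocyte genes (12 of 20 lower) and choroid plexus genes (8 of 16 lower) have the longest bars, and clock genes (4 of 19) the longest bar to the right.

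Myelin genes were lower in MAN@SKI II than in Con as a group. Of 20 oligodendrocyte and myelin genes, 12 fell, 0 rose and all 20 had negative values, with a median log2 fold change of -0.58, beside -0.46 in Model against the same Con libraries. Mobp, a structural protein of compact myelin, was at 515, 477 and 481 CPM in MAN@SKI II mice, 553, 575 and 541 CPM in Model mice and 1229, 1219 and 1050.5 CPM in Con. Against Con the log2 fold change was -1.25 ± 0.07 (adjusted p = 1.36e-06). The 3 groups did not overlap, with MAN@SKI II lowest and Con highest. Mal, a proteolipid of myelin membranes, was at 193, 189.5 and 205 CPM in MAN@SKI II mice, 228, 235 and 228 CPM in Model mice and 389, 365 and 309.9 CPM in Con. Mag, an adhesion molecule between myelin and axon, was at 106, 73.5 and 111 CPM in MAN@SKI II mice, 122, 131 and 112 CPM in Model mice and 180.1, 155 and 163 CPM in Con. These 3 genes had intervals of MAN@SKI II minus Model below 0: -0.33 to -0.03 for Mobp, -0.41 to -0.06 for Mal and -0.64 to -0.03 for Mag. Mbp, by contrast, was at 819, 709.8 and 902 CPM in MAN@SKI II mice, 794, 956 and 888 CPM in Model mice and 1575, 1328 and 1231 CPM in Con, so the BTBR groups overlapped. The list median of MAN@SKI II minus Model was -0.11 (14 of 20 negative, beside 8667 of 17550 genes), and no member was called by edgeR between the BTBR groups. That median was -0.040 without MAN@SKI II 2, -0.047 without Model 2 and -0.098 to -0.175 without any other single library. Mobp kept its call against Con with the choroid plexus covariate (-1.15), while the calls in the list fell to 2. Enpp2, counted among the 12, is also strongly expressed by choroid plexus.

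Oligodendrocyte progenitor genes fell in 3 of 12 cases, with a median of -0.28 in MAN@SKI II and -0.10 in Model, where 0 were called. Of the 3 members called between the BTBR mean and Con, 1 remained, 2 could not be placed and 0 grew. Olig1, a transcription factor of the lineage, was at 102, 85.4 and 110.4 CPM in MAN@SKI II mice, 107, 117 and 108 CPM in Model mice and 136, 134 and 135 CPM in Con (-0.44 ± 0.09, adjusted p = 0.01). Bmp4, a signal that holds back oligodendrocyte maturation, had a value of -0.99 ± 0.23 (adjusted p = 0.024), a call that ended without MAN@SKI II 1, MAN@SKI II 2 or any single Con library. The 3 calls in the list became 1 without Con 1 or Con 2.

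Among glial genes, calls against Con were mostly falls. Gfap, the intermediate filament of astrocytes, was at 247, 202 and 231 CPM in MAN@SKI II mice, 209.8, 253 and 230.2 CPM in Model mice and 351, 329 and 363 CPM in Con. Against Con the log2 fold change was -0.62 ± 0.09 (adjusted p = 0.00136). With Gjb6, the gap junction protein connexin 30 (-0.52 ± 0.11, adjusted p = 0.0123), it was among 3 of 16 astrocyte identity genes that fell, with a list median of -0.06, and the 3 falls became 1 without Con 1 or Con 2, where Gjb6 lost its call. Of 15 reactivity genes 1 rose, Serpina3n, and 1 fell, the complement component C4b. Among microglial genes 6 of 20 fell and 0 rose, with a median of -0.26 in MAN@SKI II and -0.17 in Model. Against Con 17 of the 20 had negative and 3 positive values in MAN@SKI II. The microglial marker P2ry12 went the other way, at 29.6, 47.3 and 25.8 CPM in MAN@SKI II mice, 18.0, 14.8 and 28.6 CPM in Model mice and 25.6, 11.2 and 13.2 CPM in Con. C1qb, a chain of the complement initiator C1q, was at 15.9, 13.6 and 16.7 CPM in MAN@SKI II mice, 18.9, 18.0 and 20.2 CPM in Model mice and 35.3, 35.8 and 32.8 CPM in Con. Its log2 fold change over Con was -1.17 ± 0.10 (adjusted p = 3.68e-05). It lay lower in all 3 treated mice than in all 3 Model mice (interval -0.52 to -0.08). C1qc, another chain, was at 19.4, 14.5 and 17.3 CPM in MAN@SKI II mice, 18.3, 16.1 and 21.1 CPM in Model mice and 31.1, 29.8 and 32.1 CPM in Con (-0.86 ± 0.13, adjusted p = 0.00166), so the BTBR groups overlapped. C1qa, which completes the complex, was at 30.3, 25.1 and 33.7 CPM in MAN@SKI II mice, 32.0, 30.7 and 36.0 CPM in Model mice and 31.5, 31.7 and 30.5 CPM in Con (-0.07 ± 0.11, adjusted p = 0.771). The chains of a single complex therefore gave unlike values against Con, with only C1qb and C1qc called.

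The complement list as a whole had 5 of 19 members lower and 0 higher in MAN@SKI II, with a median of -0.27, and 5 lower in Model. Cd59a, which blocks the membrane attack complex on the host's own cells, was at 1.32, 1.41 and 1.21 CPM in MAN@SKI II mice, 1.20, 1.28 and 1.62 CPM in Model mice and 3.64, 3.30 and 3.68 CPM in Con (-1.42 ± 0.20, adjusted p = 0.0014). C4b was at 25.9, 19.3 and 20.003 CPM in MAN@SKI II mice, 18.5, 17.1 and 20.02 CPM in Model mice and 34.0, 34.0 and 34.8 CPM in Con (-0.66 ± 0.12, adjusted p = 0.00536). Of 27 interferon-induced genes, 2 rose, among them the signal transducer Stat2 (0.41 ± 0.09, adjusted p = 0.0186), and 0 rose without MAN@SKI II 1, Con 2 or Con 3. In the antigen presentation list 1 of 20 fell, H2-T22, a nonclassical class I gene of a family with many similar members (-1.10 ± 0.16, adjusted p = 0.00122), and 3 fell without MAN@SKI II 3.

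Choroid plexus genes had the most negative list median against Con and a wide spread among mice. All 16 had negative values, 8 fell, and the median was -2.64 in MAN@SKI II and -3.10 in Model. Transthyretin, encoded by Ttr, is the main secreted product of this tissue; Ttr was at 17.0, 19.3 and 313 CPM in MAN@SKI II mice, 13.5, 257 and 12.9 CPM in Model mice and 2232, 1259 and 824 CPM in Con. It missed the threshold (-3.62 ± 1.75, adjusted p = 0.299). Aqp1, a water channel, was at 0.518, 0.566 and 0.959 CPM in MAN@SKI II mice, 0.539, 0.754 and 0.558 CPM in Model mice and 12.8, 4.60 and 2.82 CPM in Con (-3.29 ± 0.60, adjusted p = 0.00993). MAN@SKI II 3 and Model 2 held more choroid plexus RNA than the other BTBR libraries, and the 8 calls became 1 without MAN@SKI II 1 or MAN@SKI II 2 and 11 without Model 2. Folr1, a folate receptor, was called (-2.34 ± 0.45, adjusted p = 0.00901), and it overlaps the more strongly counted Anapc15 on the opposite strand. Ependymal and motile cilium genes went both ways: 8 of 14 had negative values, the median was -0.21 in MAN@SKI II and -0.49 in Model, and with the covariate the median was 0.54. Foxj1, the transcription factor of motile ciliogenesis, was at 6.56, 5.52 and 8.12 CPM in MAN@SKI II mice, 5.57, 7.54 and 3.79 CPM in Model mice and 13.2, 9.49 and 8.58 CPM in Con, so both BTBR groups lay below Con. Of the 14, 2 were called higher (Cfap54 and Drc1, an organiser of the ciliary dynein regulatory complex, at 0.94 ± 0.10) and 1 lower (Mia, -1.60 ± 0.40, adjusted p = 0.0315). Mia lost its call in 6 of the fits that left out a library, among them those without MAN@SKI II 1, MAN@SKI II 2 or any Con library.

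Endothelial and mural genes had 2 of 18 lower and 1 higher; 1 was lower without MAN@SKI II 1, MAN@SKI II 3 or any Con library, and 0 were higher without MAN@SKI II 1, Con 1 or Con 2. Rgs5, a regulator of G protein signalling in pericytes, was at 68.3, 62.4 and 66.2 CPM in MAN@SKI II mice, 72.2, 67.0 and 61.4 CPM in Model mice and 107, 97.7 and 103 CPM in Con (-0.64 ± 0.08, adjusted p = 0.000393). Abcc9, a subunit of the potassium channel of mural cells, rose against Con and lay closer to it than in Model: it was at 12.6, 13.6 and 11.2 CPM in MAN@SKI II mice, 15.3, 15.4 and 14.6 CPM in Model mice and 8.46, 8.72 and 9.17 CPM in Con (0.50 ± 0.11, adjusted p = 0.0156). The groups did not overlap, and its interval of MAN@SKI II minus Model was -0.51 to -0.04. Its call against Con ended without MAN@SKI II 1, Con 1 or Con 2.

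Calls among dentate granule and CA pyramidal cell markers were all falls. C1ql2, a secreted synaptic organiser of dentate granule cells, was at 39.4, 32.0 and 43.3 CPM in MAN@SKI II mice, 42.8, 31.3 and 45.6 CPM in Model mice and 76.3, 86.0 and 81.1 CPM in Con (-1.08 ± 0.14, adjusted p = 0.00104). Lct, also enriched in these cells, was at 30.3, 33.4 and 32.1 CPM in MAN@SKI II mice, 29.8, 25.5 and 29.2 CPM in Model mice and 56.7, 50.0 and 50.5 CPM in Con. In the dentate list 3 of 12 fell (25%, beside 4.7% of all genes), all 3 with differences from Con that remained. Without MAN@SKI II 2, 5 fell. The list had 9 negative and 3 positive values, with a median of -0.21 in MAN@SKI II and -0.30 in Model. Of 15 genes of CA pyramidal cells 2 fell (13.3%): Spink8, a protease inhibitor of CA1 (-1.35 ± 0.16, adjusted p = 0.000358), and Iyd, an iodotyrosine deiodinase (-1.75 ± 0.25, adjusted p = 0.00134). The CA list had a median of 0.07; the fall of Spink8 remained, and that of Iyd could not be placed. Stmn1, a microtubule regulator of young neurons, was at 90.6, 69.7 and 80.5 CPM in MAN@SKI II mice, 88.4, 76.7 and 83.2 CPM in Model mice and 140.2, 104 and 127 CPM in Con (-0.63 ± 0.12, adjusted p = 0.00894). Among genes of neighbouring forebrain regions 1 of 16 fell, Rgs9, a regulator of dopamine receptor signalling in striatum (-1.17 ± 0.14, adjusted p = 0.000491).

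**Figure D4:**
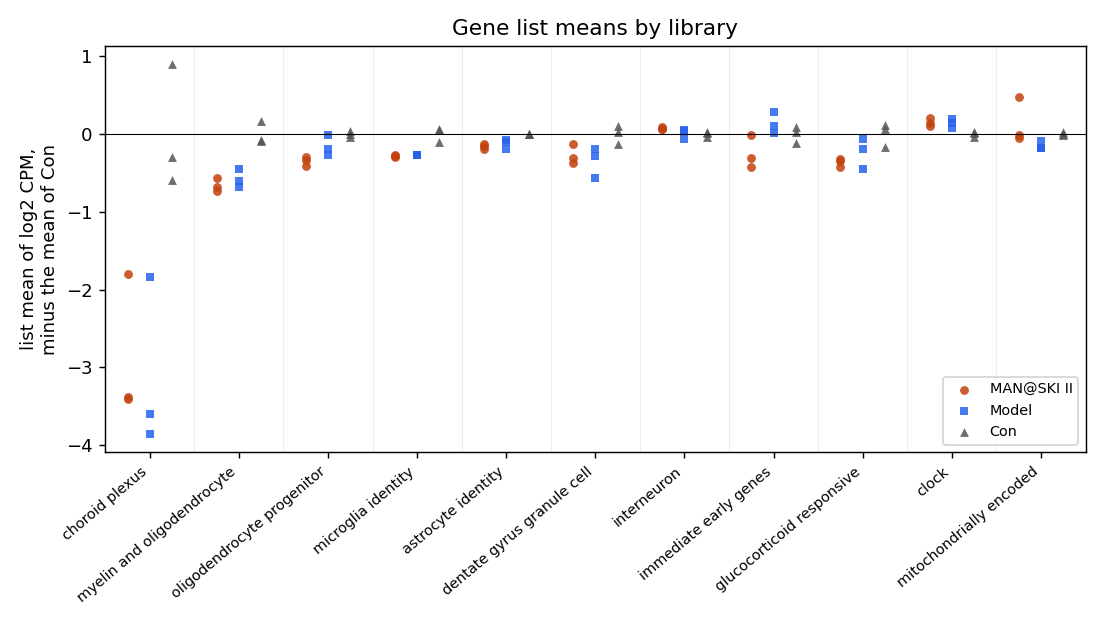
Mean log2 CPM of each gene list by library, after subtracting the mean of the 3 Con libraries; each point is a mouse, with MAN@SKI II, Model and Con from left to right. Choroid plexus means lie 1.80 to 3.41 below Con in MAN@SKI II, while immediate early genes lie 0.01 to 0.42 below Con in MAN@SKI II and 0.01 to 0.28 above it in Model.

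The S1P pathway, the target of the treatment, had a share of calls against Con near that of all genes. Of 16 genes tested, 0 rose and 1 fell (6.25% called, beside 8.13% of all genes). The list median was -0.03 in MAN@SKI II and -0.05 in Model. S1pr5, the S1P receptor of oligodendrocytes, was at 14.0, 12.9 and 15.5 CPM in MAN@SKI II mice, 16.3, 15.0 and 16.4 CPM in Model mice and 18.6, 19.4 and 18.0 CPM in Con (-0.40 ± 0.10, adjusted p = 0.0317). Its 3 treated values lay below Con and overlapped Model, and its call ended when any of 7 libraries was left out, the exceptions being MAN@SKI II 3 and Model 2. Sphk1, a sphingosine kinase, was at 1.61, 0.919 and 1.73 CPM in MAN@SKI II mice, 1.44, 1.22 and 1.45 CPM in Model mice and 2.08, 0.648 and 2.61 CPM in Con (-0.32 ± 0.42, adjusted p = 0.723). Sphk2, the other kinase, was at 30.4, 28.9 and 34.1 CPM in MAN@SKI II mice, 32.2, 34.0 and 31.6 CPM in Model mice and 32.9, 31.2 and 29.5 CPM in Con, and it overlaps Dbp on the opposite strand. Sgpl1, the lyase that ends S1P signalling, was at 38.7, 33.0 and 45.1 CPM in MAN@SKI II mice, 39.0, 36.2 and 42.7 CPM in Model mice and 39.4, 39.4 and 38.7 CPM in Con. For both genes the groups overlapped, and the counts measure neither enzyme activity nor S1P itself. S1pr1, the receptor of endothelium and astrocytes, had a value of 0.12 ± 0.08 (adjusted p = 0.447), S1pr3 of 0.14 ± 0.11 (adjusted p = 0.484) and S1pr2 of -0.04 ± 0.30 (adjusted p = 0.958).

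Ceramide and sphingomyelin enzymes held 2 rises and 2 falls among 29 genes. Acer2, an alkaline ceramidase that yields sphingosine, was at 19.2, 14.9 and 17.1 CPM in MAN@SKI II mice, 14.4, 14.7 and 23.7 CPM in Model mice and 6.96, 6.07 and 5.33 CPM in Con. On the log2 scale MAN@SKI II minus Con was 1.48 ± 0.20 (adjusted p = 0.00117). Samd8, a ceramide phosphoethanolamine synthase, was at 138, 169 and 139.8 CPM in MAN@SKI II mice, 142, 152 and 139 CPM in Model mice and 87.4, 88.6 and 91.2 CPM in Con (0.74 ± 0.08, adjusted p = 0.000268). Cers2, the synthase of very long chain ceramides of myelin, was at 50.7, 48.7 and 58.4 CPM in MAN@SKI II mice, 51.2, 57.1 and 54.1 CPM in Model mice and 71.1, 67.6 and 70.1 CPM in Con (-0.40 ± 0.08, adjusted p = 0.0114). These differences from Con remained, with BTBR groups that overlapped; Cers2 overlaps Setdb1 on the opposite strand, and its call ended without Con 1. Sptssa, a small subunit of serine palmitoyltransferase, the enzyme that starts sphingolipid synthesis, was instead lower in every treated mouse than in every Model mouse: 15.3, 13.5 and 16.5 CPM in MAN@SKI II mice, 25.1, 17.1 and 23.8 CPM in Model mice and 30.8, 26.9 and 27.7 CPM in Con. Its value against Con was -0.92 ± 0.14 (adjusted p = 0.00232) in MAN@SKI II and -0.37 in Model, where it was not called.

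APOE and lipid transport genes differed from Con in 1 of 20 cases. Apoe itself was at 1136, 745 and 1333 CPM in MAN@SKI II mice, 957, 1109 and 1115 CPM in Model mice and 750.2, 1055 and 954 CPM in Con (0.22 ± 0.21, adjusted p = 0.611). The 3 groups overlapped, and MAN@SKI II held both the lowest and the highest value of the 9 mice. Lpl, lipoprotein lipase, was at 104, 132 and 105 CPM in MAN@SKI II mice, 106, 121 and 109 CPM in Model mice and 45.3, 49.0 and 58.5 CPM in Con (1.16 ± 0.12, adjusted p = 0.00013). In cholesterol synthesis 1 of 21 rose, Lss, which forms lanosterol (0.36 ± 0.10, adjusted p = 0.0449), and 1 fell, Sc5d, a sterol desaturase, at 53.0, 65.8 and 59.7 CPM in MAN@SKI II mice, 52.0, 56.7 and 54.4 CPM in Model mice and 83.8, 82.8 and 84.4 CPM in Con. The call of Lss ended without any single library other than MAN@SKI II 3. Among prostaglandin and phospholipase genes, Ptgs2, the inducible cyclooxygenase of active neurons, was at 9.62, 15.1 and 15.7 CPM in MAN@SKI II mice, 11.3, 10.9 and 8.59 CPM in Model mice and 27.0, 31.5 and 33.4 CPM in Con (-1.19 ± 0.18, adjusted p = 0.00196), while Pla2g4e and Pla2g6 (0.49 ± 0.09, adjusted p = 0.00679) rose.

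Synaptic genes called against Con had values of 0.21 to 0.54. Of 30 genes of the excitatory postsynapse 1 rose (3.33%, beside 3.43% of all genes). It was Baiap2, an actin scaffold of dendritic spines (0.21 ± 0.05, adjusted p = 0.038), and its call held in only 1 of the 9 fits that left out a library, that without MAN@SKI II 2. The list had 26 positive and 4 negative values, with a median of 0.10, or 0.03 without MAN@SKI II 2. Dlg4, the scaffold PSD-95, was at 657, 781 and 765 CPM in MAN@SKI II mice, 644, 626 and 753 CPM in Model mice and 669.5, 725 and 726 CPM in Con (0.05 ± 0.09, adjusted p = 0.771). Syn1, which tethers synaptic vesicles, was at 764, 929 and 755 CPM in MAN@SKI II mice, 749, 740.0 and 729 CPM in Model mice and 701, 703 and 765 CPM in Con (0.18 ± 0.08, adjusted p = 0.231). Both overlapped Con. In the vesicle release list 2 of 30 rose (6.67%), while leaving out MAN@SKI II 2 gave 5, and leaving out MAN@SKI II 3 gave 4. The 2 were Cplx2, a complexin, at 2026, 1985 and 2004 CPM in MAN@SKI II mice, 2111, 1854 and 1972 CPM in Model mice and 1583, 1629 and 1631 CPM in Con (0.31 ± 0.06, adjusted p = 0.00633), and Sv2c, a vesicle glycoprotein. Sv2c was at 47.5, 51.3 and 46.7 CPM in MAN@SKI II mice, 43.4, 40.9 and 44.3 CPM in Model mice and 34.3, 32.2 and 33.3 CPM in Con (0.54 ± 0.07, adjusted p = 0.00099), with groups that did not overlap. Sv2c overlaps Gm20075 on the same strand, whose counts were 59.9% of those of Sv2c.

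Receptor and channel lists had 0 to 2 rises each. Gabra2, a GABA-A receptor subunit, was at 197, 297 and 202 CPM in MAN@SKI II mice, 239.5, 194 and 209 CPM in Model mice and 88.6, 94.8 and 107 CPM in Con. Its log2 fold change over Con was 1.26 ± 0.16 (adjusted p = 0.00136). In the GABA list, where 4 rose without MAN@SKI II 3, Gabrb2 also rose (0.27 ± 0.07, adjusted p = 0.0461) and Slc12a2, the chloride importer NKCC1, fell: it was at 69.7, 77.6 and 76.4 CPM in MAN@SKI II mice, 73.3, 82.3 and 75.1 CPM in Model mice and 108, 103 and 98.4 CPM in Con (-0.47 ± 0.07, adjusted p = 0.00229). Grin2d, an NMDA receptor subunit, was the only glutamate receptor gene of 29 called (0.44 ± 0.08, adjusted p = 0.00603), and it overlaps Kdelr1 on the opposite strand. Kcnip3, a calcium sensor that also regulates potassium channels, was the only one of 32 genes of its list to fall, at 60.3, 51.6 and 63.9 CPM in MAN@SKI II mice, 57.7, 56.0 and 56.98 CPM in Model mice and 103, 93.0 and 103 CPM in Con. Adra1d, an adrenergic receptor, was at 59.1, 49.5 and 63.5 CPM in MAN@SKI II mice, 67.0, 71.1 and 66.9 CPM in Model mice and 73.6, 75.3 and 77.2 CPM in Con (-0.39 ± 0.09, adjusted p = 0.0191), farther from Con in every treated mouse than in every Model mouse. The calls of Gabrb2 and Adra1d each ended without any single Con library, and that of Gabrb2 also without any other library except MAN@SKI II 3. Chrm4, a muscarinic receptor, rose by 0.62 ± 0.14 (adjusted p = 0.017), and Cnr1, the cannabinoid receptor of interneurons, by 0.25 ± 0.07 (adjusted p = 0.0394). The call of Chrm4 ended without Con 1 or Con 2, and that of Cnr1 without any single Model or Con library.

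Neurotrophin genes fell in 3 of 12 cases, in 1 without MAN@SKI II 1, Con 2 or Con 3, and in 5 without MAN@SKI II 2. Gfra2, a receptor for neurturin, was at 19.6, 19.2 and 19.8 CPM in MAN@SKI II mice, 18.8, 24.2 and 22.2 CPM in Model mice and 41.2, 40.0 and 39.3 CPM in Con. Against Con the log2 fold change was -1.04 ± 0.10 (adjusted p = 7.55e-05). Bdnf was at 29.2, 36.6 and 33.7 CPM in MAN@SKI II mice, 32.3, 37.8 and 36.9 CPM in Model mice and 41.1, 46.5 and 48.1 CPM in Con. It was called against Con in MAN@SKI II (-0.45 ± 0.11, adjusted p = 0.023) and not in Model (-0.34), yet the interval of the difference between the BTBR groups, -0.34 to 0.12, held 0, and the call ended without MAN@SKI II 1, Con 2 or Con 3. Of 33 autism risk genes 2 rose, Ash1l, a histone methyltransferase (0.31 ± 0.08, adjusted p = 0.0416), and Scn2a, a sodium channel of excitatory neurons (0.53 ± 0.14, adjusted p = 0.0471); each call ended in 7 of the 9 fits that left out a library. Among genes known to carry BTBR variants, Draxin, a guidance cue of commissural axons, was at 0.806, 1.06 and 0.447 CPM in MAN@SKI II mice, 0.779, 0.464 and 1.12 CPM in Model mice and 2.67, 2.89 and 2.19 CPM in Con (-1.74 ± 0.35, adjusted p = 0.0111), and it overlaps Mad2l2 on the opposite strand. For Itpr3, an IP3 receptor, the value was -0.43 ± 0.19 (adjusted p = 0.215), and for Disc1, a scaffold named for a psychiatric translocation, -0.83 ± 0.27 (adjusted p = 0.0926). Of 34 axon guidance genes, Draxin fell and Unc5a, a netrin receptor, rose (0.27 ± 0.06, adjusted p = 0.0211), a call that ended without MAN@SKI II 1, Con 1 or Con 2.

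Immediate early genes, whose transcription follows neuronal activity, were lower in MAN@SKI II than in Model by their list medians. Their median log2 fold change against Con was -0.30 in MAN@SKI II and 0.19 in Model, and that of MAN@SKI II minus Model was -0.39, with 23 of 26 negative. With the choroid plexus covariate the median of MAN@SKI II against Con turned to 0.06, with 0 calls. Fos was at 6.39, 4.67 and 11.9 CPM in MAN@SKI II mice, 14.9, 21.5 and 14.3 CPM in Model mice and 9.76, 15.4 and 12.8 CPM in Con. Nr4a1, a nuclear receptor, was at 63.1, 50.6 and 74.9 CPM in MAN@SKI II mice, 87.4, 104 and 89.9 CPM in Model mice and 62.0, 74.3 and 76.8 CPM in Con. Both were lower in all treated mice than in all Model mice, while treated mice and Con overlapped. Against Con 2 of 26 fell, Bdnf and Dusp5, a phosphatase that acts on ERK (-0.37 ± 0.10, adjusted p = 0.0476), and 0 rose. The number that fell was 9 without MAN@SKI II 3, the treated mouse with the highest Fos, 0 without MAN@SKI II 1, Con 2 or Con 3, and 1 without MAN@SKI II 2, Model 3 or Con 1. For 14 of the 26 the unadjusted p of MAN@SKI II minus Model was under 0.05, beside 4.82% of all genes, and none was called after adjustment. Fos and Nr4a1 were chosen for display after their values were seen.

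Glucocorticoid-responsive genes fell in 5 of 16 cases in MAN@SKI II, with a median of -0.37, beside 1 in Model, with -0.28. Hsd11b1, which regenerates active glucocorticoid, was at 19.0, 20.4 and 20.003 CPM in MAN@SKI II mice, 21.0, 16.2 and 21.0 CPM in Model mice and 26.1, 28.0 and 27.9 CPM in Con (-0.47 ± 0.11, adjusted p = 0.0236). Fkbp5, a cochaperone of the glucocorticoid receptor, was at 72.2, 60.1 and 63.6 CPM in MAN@SKI II mice, 72.0, 66.2 and 70.0 CPM in Model mice and 83.6, 88.9 and 77.4 CPM in Con (-0.35 ± 0.08, adjusted p = 0.027). Both remained by the interval rule, none of the 16 had an unadjusted p under 0.05 between the BTBR groups, and the 5 calls became 0 without Con 1 or Con 2, 1 without MAN@SKI II 3 and 2 without either other treated mouse. Clock genes rose in 4 of 19 cases, with 0 lower and a median of 0.22, beside 1 in Model with 0.15. The clock list did not differ between the BTBR groups by its median of MAN@SKI II minus Model (-0.0016). All 5 clock genes called between the BTBR mean and Con remained, and 0 grew. Per3, a period gene, was at 68.2, 70.3 and 60.3 CPM in MAN@SKI II mice, 65.3, 57.5 and 72.0 CPM in Model mice and 47.2, 51.9 and 47.4 CPM in Con (0.44 ± 0.10, adjusted p = 0.0164). Nr1d1, a nuclear receptor of the clock that overlaps Thra on the opposite strand, was at 109, 137 and 108 CPM in MAN@SKI II mice, 107, 85.2 and 109 CPM in Model mice and 80.3, 81.0 and 84.3 CPM in Con (0.52 ± 0.11, adjusted p = 0.0141). With the choroid plexus covariate the clock list had 0 calls and a median of -0.05. The 4 clock calls became 0 without Con 1 and 1 without Con 2 or Con 3, and the hour at which each mouse was killed is not given in the sources used here.

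In metabolism and stress lists single genes remained different from Con. Me3, a mitochondrial malic enzyme, was at 96.97, 101 and 97.4 CPM in MAN@SKI II mice, 92.8, 102 and 98.7 CPM in Model mice and 58.3, 64.3 and 62.8 CPM in Con. On the log2 scale MAN@SKI II minus Con was 0.67 ± 0.07 (adjusted p = 0.000113). Cat, catalase, was at 36.7, 36.9 and 35.5 CPM in MAN@SKI II mice, 39.1, 37.6 and 32.8 CPM in Model mice and 53.0, 51.7 and 51.8 CPM in Con (-0.52 ± 0.08, adjusted p = 0.00209). Glo1, which detoxifies methylglyoxal and is often named in work on this strain, fell by 0.70 ± 0.08 (adjusted p = 0.000287), but summed with its near-identical pseudogene it was at 50.2 ± 3.48 CPM in MAN@SKI II mice, 46.0 ± 0.909 CPM in Model mice and 58.6 ± 1.26 CPM in Con and lost the call (-0.22, adjusted p = 0.0883). Cryab, a small heat shock protein of oligodendrocytes and astrocytes, was at 26.4, 20.2 and 27.8 CPM in MAN@SKI II mice, 22.9, 26.0 and 24.3 CPM in Model mice and 40.9, 41.0 and 40.9 CPM in Con (-0.72 ± 0.11, adjusted p = 0.00255). Among 36 nuclear genes of the respiratory chain 1 rose, Uqcrc2 of complex III (0.24 ± 0.05, adjusted p = 0.0187; the call ended without MAN@SKI II 1, MAN@SKI II 3 or any Con library), and 1 fell, Cox7c (-1.44 ± 0.21, adjusted p = 0.00131). Cox7c was low even when summed with its near-identical Cox7c-ps1 (-1.61 against Con). The sum was 2.42 ± 0.376 CPM in MAN@SKI II mice, 2.29 ± 0.520 CPM in Model mice and 7.40 ± 0.821 CPM in Con. Of the 13 mitochondrially encoded genes 0 were called against Con (2 fell without MAN@SKI II 2), with medians of 0.19 in MAN@SKI II and -0.13 in Model; the range of their summed level, 62755 to 93873 CPM in MAN@SKI II mice, was set at its upper end by MAN@SKI II 2.

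Of the 74 genes that lay farther from Con in MAN@SKI II than in Model, 9 were on a gene list. Those described here had the smallest unadjusted p, which chose them, and are given with no test. Usp45, a deubiquitinase (chromosome 4, 21767156 to 21837872 on GRCm39), was at 67.3, 44.6 and 67.0 CPM in MAN@SKI II mice, 32.4, 31.5 and 27.3 CPM in Model mice and 27.3, 27.3 and 26.4 CPM in Con. It rose against Con in MAN@SKI II (1.14 ± 0.14, adjusted p = 0.00061), with a value of 0.17 in Model, and it overlaps Tstd3 on the opposite strand. Arhgef19, an exchange factor for small GTPases (chromosome 4, 140966810 to 140984875), was at 5.70, 6.15 and 6.20 CPM in MAN@SKI II mice, 8.21, 10.2 and 9.03 CPM in Model mice and 20.1, 19.0 and 19.7 CPM in Con. Padi2, a peptidylarginine deiminase of oligodendrocytes that acts on myelin proteins (chromosome 4, 140633655 to 140679897), was at 54.0, 57.5 and 49.4 CPM in MAN@SKI II mice, 42.4, 44.0 and 43.7 CPM in Model mice and 39.4, 34.6 and 39.4 CPM in Con. It rose against Con in MAN@SKI II, unlike the myelin genes, and its value in Model was 0.20. Irak2, a kinase of interleukin-1 and Toll-like receptor signalling, was at 15.3, 14.4 and 18.4 CPM in MAN@SKI II mice, 8.81, 13.3 and 10.1 CPM in Model mice and 8.66, 9.14 and 8.63 CPM in Con (0.86 ± 0.16, adjusted p = 0.0063). Epas1, the hypoxia-inducible factor HIF-2α, was at 109, 118 and 125 CPM in MAN@SKI II mice, 152, 134 and 135 CPM in Model mice and 166, 159 and 153 CPM in Con (-0.44 ± 0.07, adjusted p = 0.00363). In all of these the treated mice did not overlap Model, which a choice by the smallest p favours. The share of all genes with such a split between the BTBR groups is not given here. Rps6, a ribosomal protein gene, lost its difference when summed with its 5 near-identical copies, of which Rps6-ps4 matches all 747 coding bases: the sum was 171 ± 6.61 CPM in MAN@SKI II mice, 167 ± 2.91 CPM in Model mice and 173 ± 8.01 CPM in Con.

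**Figure D5:**
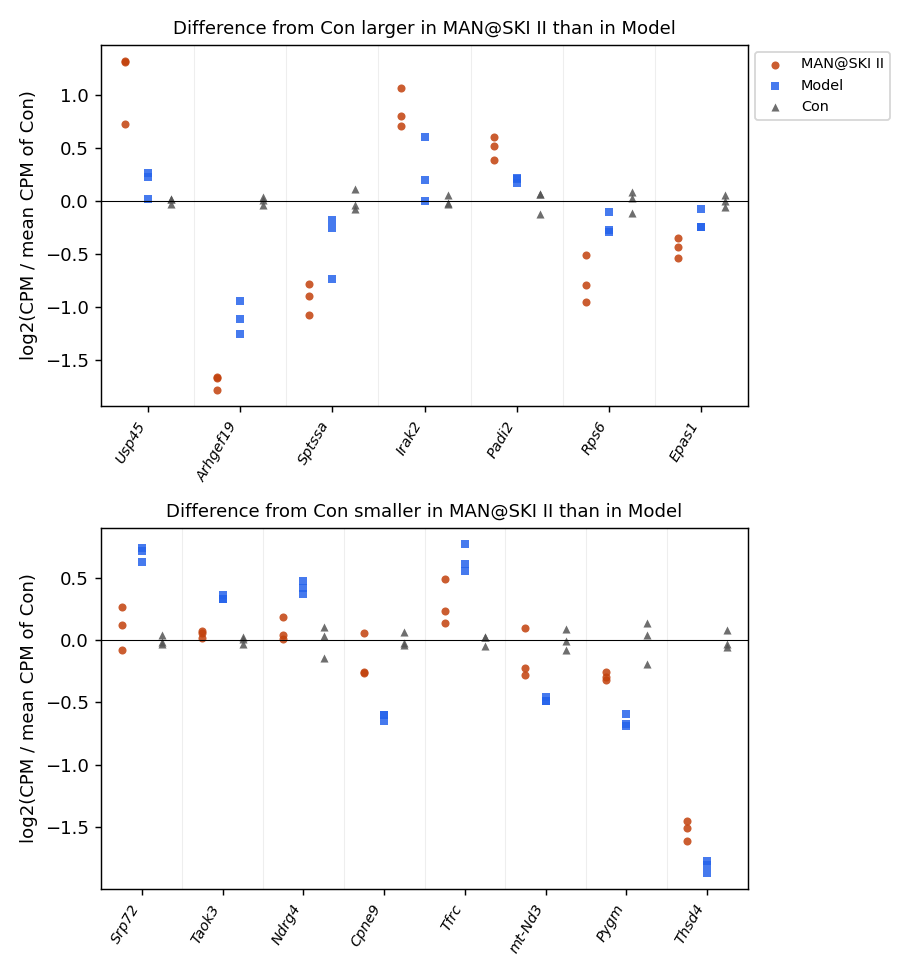
Log2 of CPM over the mean CPM of Con, by library, for 7 genes farther from Con in MAN@SKI II than in Model (upper panel) and 8 closer to Con (lower panel), chosen by the smallest unadjusted p between the BTBR groups; each point is a mouse, with MAN@SKI II, Model and Con from left to right. Srp72 and Taok3 lie near the Con line in MAN@SKI II, while Thsd4 lies far from it in both BTBR groups.

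Genes whose difference from Con shrank came from several functions. Those described were again chosen by the smallest unadjusted p between the BTBR groups, which favours groups that do not overlap, and are given with no test. Srp72, which belongs to the signal recognition particle (chromosome 5, 77122530 to 77147784), was at 68.6, 76.2 and 60.01 CPM in MAN@SKI II mice, 105, 104 and 97.3 CPM in Model mice and 62.0, 62.7 and 65.2 CPM in Con. Its value against Con was 0.11 ± 0.09 in MAN@SKI II (adjusted p = 0.507) and 0.69 in Model. Taok3, a kinase of the Ste20 family (chromosome 5, 117258194 to 117413284), was at 57.1, 59.5 and 58.6 CPM in MAN@SKI II mice, 72.3, 70.9 and 70.8 CPM in Model mice and 56.7, 57.5 and 55.2 CPM in Con. Ndrg4, a neuronal gene of vesicle trafficking, was at 619.6, 635 and 701 CPM in MAN@SKI II mice, 825, 856 and 797 CPM in Model mice and 559.8, 630.4 and 663 CPM in Con. For Srp72, Taok3 and Ndrg4 the treated mice overlapped Con and not Model. Tfrc, the transferrin receptor of cellular iron uptake, was at 168, 179 and 215 CPM in MAN@SKI II mice, 233, 260.0 and 224 CPM in Model mice and 155, 148 and 155 CPM in Con. Pygm, muscle-type glycogen phosphorylase, which brain astrocytes also use, was at 25.9, 24.8 and 25.2 CPM in MAN@SKI II mice, 19.4, 19.2 and 20.6 CPM in Model mice and 31.9, 34.1 and 27.1 CPM in Con. Both lay between Model and Con in every treated mouse. Thsd4, an extracellular matrix protein of microfibrils, was the one of the 8 still called against Con, at 23.4, 24.3 and 21.8 CPM in MAN@SKI II mice, 18.2, 19.5 and 19.0 CPM in Model mice and 64.9, 64.0 and 70.1 CPM in Con (-1.52 ± 0.08, adjusted p = 8.87e-07). Cpne9, a calcium-dependent lipid-binding copine, was at 10.7, 13.2 and 10.6 CPM in MAN@SKI II mice, 8.15, 8.41 and 8.42 CPM in Model mice and 12.6, 12.4 and 13.3 CPM in Con. mt-Nd3, a subunit of complex I, was at 175, 227 and 182 CPM in MAN@SKI II mice, 155, 152 and 151 CPM in Model mice and 226, 211 and 201 CPM in Con, with its highest treated value in MAN@SKI II 2, and it has a near-identical gene, Gm28438. It was not alone: of the 13 mitochondrially encoded genes, 0 were lower in MAN@SKI II than in Model. Their median of MAN@SKI II minus Model was 0.35, or 0.12 without MAN@SKI II 2, and 6 had an unadjusted p under 0.05 by edgeR, beside 4.82% of all genes. Without MAN@SKI II 2 the adjusted p between the BTBR groups was 0.000173 for Usp45 and 0.00621 for Srp72, whereas with all 9 libraries it was 0.188 for both. In the same edgeR fit without MAN@SKI II 2 it was 0.41 to 0.996 for the other genes chosen as growing or shrinking. All of these genes were chosen by their p in this comparison, so the values are no independent evidence.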

How the data were processed

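Hippocampal mRNA of 9 male mice, 3 per group, was sequenced as 150 bp paired reads. The authors deposited raw read counts and FPKM values per gene, per the file headers; the counts were tested and the FPKM values were not used. The submitters' processing notes name HISAT2 2.0.4, StringTie 1.3.3b, Bowtie2, edgeR 3.2.0 and build GRCm39. For the counting tool, its strand setting and the annotation, the sources used here name nothing. The groups come from the sample titles, which call the samples biological replicates.

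Of 57180 genes, 25887 had no counts and 17550 passed edgeR's filterByExpr. Counts of all 9 libraries were fitted with group as the only term (edgeR 4.0.16, R 4.3.3, TMM factors, robust quasi-likelihood fit, prior count of 2), with Benjamini-Hochberg adjustment over all genes and a threshold of 0.05. CPM are the usual library-scaled counts, over tested genes and TMM-adjusted. Standard errors are the fold change over the square root of F; their median was 0.14 on the log2 scale. A floor of 3 counts covers counting error only. A gene remained where the 95% interval of MAN@SKI II minus Model lay within 1.5-fold and its unadjusted p was 0.05 or more; it grew or shrank where that p was under 0.05. Named genes were the 12 largest rises and falls with at least 5 CPM and groups that did not overlap, up to 2 called members per direction and list, 8 genes that grew and 8 that shrank, and a set of S1P, synaptic and strain genes; a few others were named after their values were seen. Copies of named genes were searched for by BLAST 2.17.0 in GENCODE M21 transcripts. The procedure was tested on simulated data. Alternatives were DESeq2 1.42.0, limma 3.58.1 (voom), other factors and filters, the 6 compared libraries alone, a replicate block and each library left out. The members and gene lists were chosen with earlier results of these data known. Some results are not reported here.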

Additional observations from a re-analysis of the deposited data

How the results depend on the processing

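The 1427 calls of MAN@SKI II against Con ranged from 1033 with the 6 compared libraries alone to 1681 with DESeq2 across the planned tools, factors and filters. Leaving out 1 library gave 857 to 1633 (343 to 740 higher, 498 to 893 lower, 452 to 588 of at least 1 on the log2 scale). With the choroid plexus covariate, chosen after seeing the data, there were 169 (85 higher, 84 lower, 138 of at least 1 on the log2 scale). MAN@SKI II against Model gave 0 calls, 1 without factors, with no filter or with the 6 compared libraries alone (1 lower each), and 17 with DESeq2 (10 higher, 7 lower); leaving out 1 library gave 0 to 9 (0 to 5 higher, 0 to 6 lower). Model against Con gave 2073 calls (904 higher) with 6 libraries alone and 830 to 2226 (337 to 1000 higher, 493 to 1226 lower) with 1 library left out. The BTBR mean gave 1152 to 2674 (455 to 1195 higher, 683 to 1479 lower). Of its genes, 661 to 1813 remained, 42 to 194 grew, 30 to 81 shrank and 415 to 696 could not be placed. A narrower width left 623 that remained and 1142 not placed, and a width of 2-fold left 284 not placed. The replicate block gave 1134 calls against Con and 1 (higher) against Model; same-numbered libraries deviated together with r of -0.064 to 0.052, and 2 of the 9 correlated best with their own number. Of the 97 named genes called against Con, 65 kept the call without each library in turn and under every other tool, factor, filter and sample choice, and 27 kept it with the covariate. The 65 do not take account of summing near-identical genes. Of the 9 called genes with such copies, 4 kept the call when summed, 4 lost it and 1 reversed. The sign turned for Sphk2 (0.0011 with RLE factors, 0.0023 with DESeq2, -0.073 to 0.048 with 1 library left out, 0.23 with the covariate), S1pr2 (-0.23 to 0.10 with 1 library left out, 0.53 with the covariate), Sgpl1 (-0.13 to 0.10 with 1 library left out, 0.087 with the covariate) and Sphk1 (-0.72 to 0.082 with 1 library left out). It also turned for Srp72 (-0.051) and Dlg4 (-0.035) with the covariate, and for Rpl29 (0.52) summed with its copies; none of these but Rpl29 was called against Con. The causes were not tested, except that summing adds the reads of the copies. With 3 mice per group, differences between the BTBR groups under about 1.5-fold could often not be placed.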
